A study of Mus musculus with 6 samples.

Results

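The genes described here are 40 named genes of the DNA damage checkpoint and of DNA repair, in sorted leukemia cells from cytarabine-treated and control mice. A row was taken where its gene symbol was one of the 40 names, and 38 of them were found among the 23284 genes of the files. The other 2 names, Claspn and Rad9a, had no row, and the rows Clspn and Rad9, which carry the symbols those genes have in the annotation of that time, are given beside the 38 but are not counted with them. All 38 reached a mean of 1 FPKM (the unit of the files, in which the fragments of a gene are divided by its length and by the total of the library) over the 6 libraries, so none was lost to the filter that left 11703 genes to test.

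The damage checkpoint is a relay of kinases. Atm is activated at double-strand breaks and Atr, with its partner Atrip, at single-stranded DNA of stalled replication forks. They phosphorylate Chek2 and Chek1, which slow the cell cycle while the lesion is repaired by homologous recombination, by end joining or by the excision pathways. Cytarabine is a nucleoside analogue that is built into DNA during replication and stalls the fork, so the Atr and Chek1 branch is the one best known for its response to this drug. Much of that response is carried by phosphorylation, which RNA levels do not show.

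C1498 is a mouse cell line labelled as acute myeloid leukemia. A single clone carrying EGFP had been injected intravenously into C57BL/6J mice, which the methods describe as young adult females. On day 21 after injection, GFP+ CD49b+ cells were sorted from the marrow of the femur, tibia and pelvis of 3 cytarabine-treated mice and 3 control mice, and 1 library was made per mouse. The labels call the controls both untreated and PBS, the drug schedule is stated for the imaging mice and not for these in particular, and all 6 mice carried the same leukemia clone, so the comparison is of drug against no drug within leukemic mice. In such bulk RNA, fewer cells of a type and less RNA per cell cannot be told apart.

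The depth of the libraries, inferred from the steps between low FPKM values, ranged from 11430000 to 18790000 reads, and 3 reads on a transcript of 2000 bases then stood for 0.0887 to 0.146 FPKM. The sorted cells expressed Ptprc at 284 to 386 FPKM. Itga2, which encodes the sorting marker CD49b, was at 7.79 to 8.11 FPKM with cytarabine and 10.6 to 13.3 FPKM in controls. Its groups did not overlap, as for 12.9% of all genes tested on the lower side. The log2 difference, cytarabine minus control, was -0.57 (limma unadjusted p = 0.00146). The myeloid markers were uneven. Kit and Csf1r reached at most 1.59 and 5.81 FPKM, while the granule genes Mpo, Elane and Ctsg were at 71.1, 81.7 and 32.8 FPKM in cytarabine 1 and at 1.06 to 12.3 FPKM in the other libraries. T cell markers were uneven too. Cd3e and Cd3g were at 130 to 199 and 449 to 652 FPKM, and Lck and Zap70 at 75.5 to 105 and 66.4 to 83.5 FPKM. Cd3d was at 3.61 to 9.99 FPKM, and Cd4, Cd5, Cd8a, Cd8b1 and Cd247 were each under 1 FPKM. In the same list of T and NK cell genes, Klrb1c was at 1.82 to 5.07 FPKM, and Ncr1, Eomes and Tbx21 were each under 1 FPKM. The colon epithelium list (15 genes) summed to 417, 5466 and 5840 FPKM in cytarabine 1, 2 and 3 and to 2589, 35.0 and 30.6 FPKM in control 1, 2 and 3. The only zero in that list was Phgr1 in control 3. A heart list (10 genes, of which up to 3 were at zero in a library) summed to 7.52 to 691 FPKM with cytarabine and 52.9 to 2540 FPKM in controls. The neutrophil list (10 genes, none at zero) summed to 1482, 261 and 248 FPKM in cytarabine 1, 2 and 3. In control 1, 2 and 3 it summed to 1487, 2097 and 2065 FPKM, so cytarabine 1 was near control 1. At an unadjusted p under 0.05, 7 of its genes were lower (9.81% of all genes tested were). Because the colon transcripts cross the groups, values are also given below for the libraries with little (cytarabine 1, control 2 and 3) and with much colon transcript (cytarabine 2 and 3, control 1). Each choice leaves cytarabine 1 or control 1 alone in its group. Where the groups of a gene do not overlap, its sign cannot turn in either choice.

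Many genes of this kind are driven in the cell cycle by E2F factors and by NF-Y, which binds the CCAAT box. Promoter windows from RefSeq (build GRCm38.p6, from 250 bases before to 50 after the start) were found for 31 of the 38 genes, as 35 windows. They were searched on both strands for the E2F letters TTTCCCGC, TTTCGCGC, TTTGCCGC and TTTGGCGC, for CCAAT, and for TTTGAA, the letters of an element of mitotic promoters. E2F letters were in 10 of the 35 windows (28.6%), those of 9 genes, against 2.26% of all 32851 windows of this length. CCAAT was in 17 windows (48.6%) against 37.4% of all, and TTTGAA in 2 (5.71%) against 17.9%. E2F letters together with CCAAT were in 4 windows (11.4%), against 0.962% of all. These 4 windows are printed because they hold both motifs, with the matches in capitals as read on the strand of the gene (GCGGGAAA and ATTGG are TTTCCCGC and CCAAT of the other strand), and the matches do not overlap. They belong to Xrcc6 (chr15:82016119-82016418, + strand), Msh6 (chr17:87974800-87975099, + strand), Chek2 (chr5:110839733-110840032, + strand) and Mdc1 (chr17:35841248-35841547, + strand).
Xrcc6: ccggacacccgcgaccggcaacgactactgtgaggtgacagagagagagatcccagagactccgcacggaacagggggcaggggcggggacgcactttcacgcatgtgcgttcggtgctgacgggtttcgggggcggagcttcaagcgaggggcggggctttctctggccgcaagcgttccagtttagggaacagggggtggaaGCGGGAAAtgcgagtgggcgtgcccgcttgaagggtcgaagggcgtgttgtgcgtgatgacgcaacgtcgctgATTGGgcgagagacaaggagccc
Msh6: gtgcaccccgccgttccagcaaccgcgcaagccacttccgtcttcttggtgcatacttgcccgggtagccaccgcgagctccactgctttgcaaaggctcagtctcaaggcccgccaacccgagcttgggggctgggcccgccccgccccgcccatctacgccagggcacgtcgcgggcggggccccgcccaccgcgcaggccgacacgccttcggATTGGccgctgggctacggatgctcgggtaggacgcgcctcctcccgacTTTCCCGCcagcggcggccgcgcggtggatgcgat
Chek2: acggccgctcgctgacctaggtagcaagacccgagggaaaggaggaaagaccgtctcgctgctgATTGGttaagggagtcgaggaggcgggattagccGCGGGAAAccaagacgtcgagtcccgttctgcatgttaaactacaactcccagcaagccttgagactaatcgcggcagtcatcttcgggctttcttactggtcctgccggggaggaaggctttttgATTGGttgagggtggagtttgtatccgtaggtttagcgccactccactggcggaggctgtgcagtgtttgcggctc
Mdc1: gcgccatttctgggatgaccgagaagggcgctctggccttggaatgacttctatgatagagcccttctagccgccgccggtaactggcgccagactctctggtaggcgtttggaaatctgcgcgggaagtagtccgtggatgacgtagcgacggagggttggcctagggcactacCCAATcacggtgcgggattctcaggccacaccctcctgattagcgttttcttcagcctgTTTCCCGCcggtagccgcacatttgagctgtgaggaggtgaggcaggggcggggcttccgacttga
These are matches of letters and not measured binding. Of the 4 genes, Xrcc6 was lower and Msh6 higher with cytarabine, and Chek2 and Mdc1 overlapped between the groups, as described below.

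As a set the 38 genes differed little between the groups. None reached an adjusted p under 0.05 in limma's fit across all genes (log2(FPKM + 1), two-sided, Benjamini-Hochberg), and neither did any other gene tested (0% of 11703). At an unadjusted p under 0.05 were 4 of the 38 (10.5%), against 17.4% of all genes tested. Higher by that measure were Msh6 and Fancl (7.6% of all genes were), and lower were Xrcc6 and Xrcc1 (9.81% of all genes). Clspn, given beside the 38 and not counted, was also higher by that measure (limma unadjusted p = 0.0114). The libraries of the groups did not overlap for 5 genes that were higher with cytarabine (13.2%, against 10.9% of all genes), namely Brca1, Exo1, Fancl, Lig4 and Msh6, and for 2 that were lower (5.26%, against 12.9%), Xrcc6 and Xrcc1. The share of the 38 genes was thus below that of all genes on the lower side and near it on the higher side.

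The median log2 difference, cytarabine minus control, was -0.06 for the 38 genes and -0.00 for all genes tested, and the median absolute difference was 0.12 against 0.18. Of the 38 genes, 15 were on the higher and 23 on the lower side of 0, against 5821 and 5882 of the 11703 genes tested. The 95% interval of the difference lay within 0.5 log2 units of 0 for 26 of the 38 and within 1 log2 unit for all 38. Of all genes tested it lay within these bounds for 5862 and 9278. A change of 1 unit of log2(FPKM + 1) thus lay outside the interval of each of the 38 genes. On this scale the change of low genes is understated, so the FPKM ratio of low genes such as Fancc is bounded less tightly. Averaged over the 38 genes, log2(FPKM + 1) came to 3.90 ± 0.15 in the cytarabine libraries and 3.93 ± 0.08 in the control libraries (SD, n = 3 mice each).

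**Figure D1:**
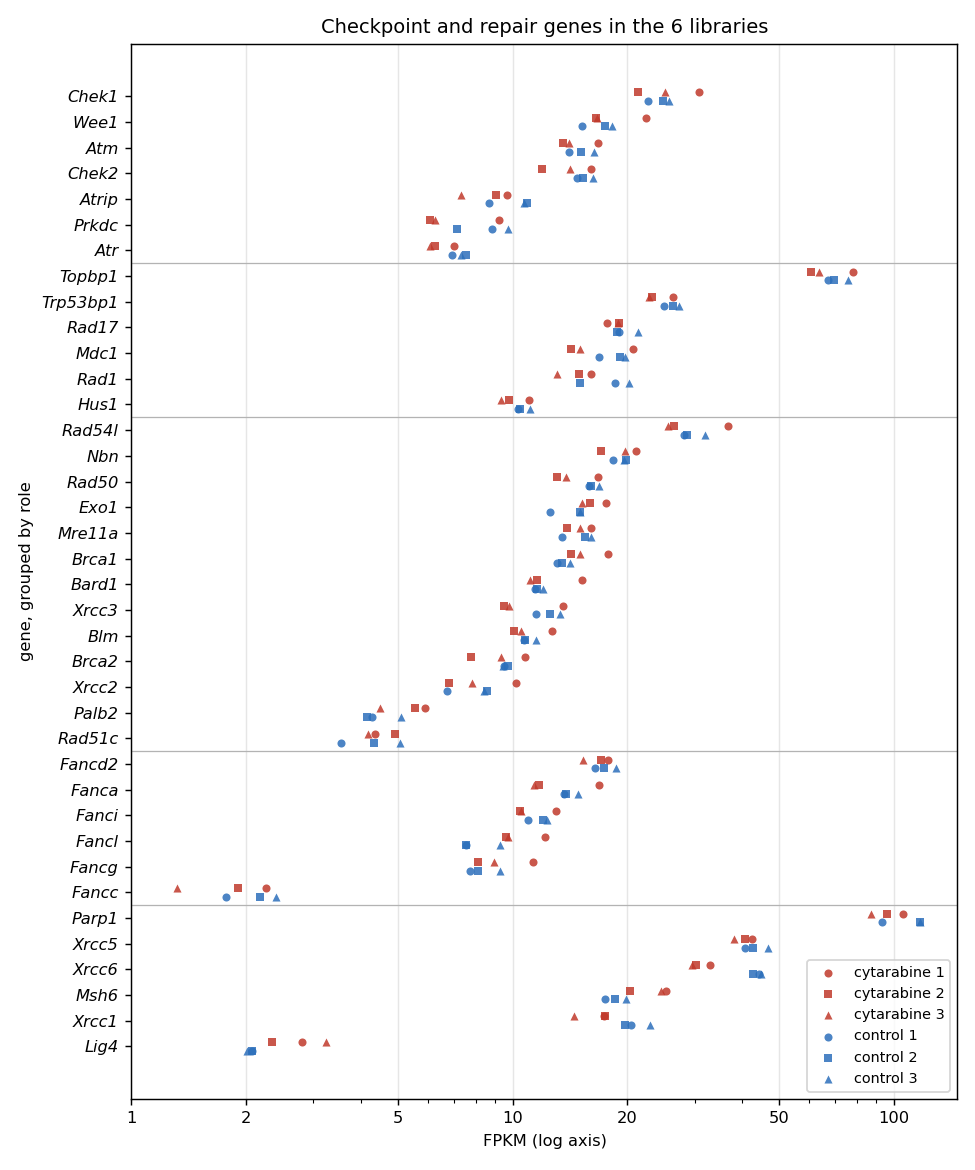
FPKM (log axis) of the 38 genes in each of the 6 libraries, grouped by role in 5 blocks, with red for cytarabine, blue for control and the symbol for the replicate. Most red and blue points overlap, and the clear gaps are at Xrcc6 (29.6 to 33.0 against 42.7 to 44.9 FPKM) and Xrcc1 (14.5 to 17.4 against 19.7 to 22.9 FPKM).

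Among the damage kinases and their partners, no gene stood apart. The 7 genes had log2 differences from -0.24 to 0.11 with a median of -0.13, 2 higher and 5 lower, and none was at an unadjusted p under 0.05. Chek1, the kinase of the fork checkpoint, had 30.8, 21.3 and 25.1 FPKM in cytarabine 1, 2 and 3 and 22.7, 24.8 and 25.7 FPKM in control 1, 2 and 3. Its group means were 25.7 ± 4.79 and 24.4 ± 1.54 FPKM, a log2 difference of 0.06 ± 0.14 (SE, limma adjusted p = 0.824). Cytarabine 1 was the highest library and cytarabine 2 the lowest, so the treated mice enclosed the controls.

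Atr, which senses single-stranded DNA at forks, had 7.02, 6.26 and 6.07 FPKM with cytarabine and 6.95, 7.55 and 7.31 FPKM in controls. The log2 difference was -0.15 ± 0.09 (SE, limma adjusted p = 0.391). Only cytarabine 1 lay above a control library. Its partner Atrip had 9.68, 9.06 and 7.31 FPKM against 8.67, 10.9 and 10.7 FPKM, a log2 difference of -0.20 ± 0.14 (SE, limma adjusted p = 0.443). Here both cytarabine 1 and 2 lay above control 1 and below the other controls. Atrip shares exons on the same strand with Trex1, so reads of these genes could have been split between them.

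Atm, the kinase of double-strand breaks, was at 16.7, 13.6 and 14.1 FPKM with cytarabine and 14.02, 15.1 and 16.3 FPKM in controls, with a log2 difference of -0.04 ± 0.10 (SE, limma adjusted p = 0.857). Its substrate Chek2 was at 16.1, 11.9 and 14.1 against 14.8, 15.3 and 16.2 FPKM, with a log2 difference of -0.13 ± 0.12 (SE, limma adjusted p = 0.524). Both genes overlapped between the groups, and cytarabine 1 was the highest cytarabine library for each. Prkdc, the catalytic kinase of end joining, was at 9.19, 6.06 and 6.25 against 8.85, 7.13 and 9.71 FPKM, with a log2 difference of -0.24 ± 0.18 (SE, limma adjusted p = 0.484). Cytarabine 2 and 3 were its lowest libraries, and cytarabine 1 lay between the controls.

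Wee1, which holds Cdk1 inactive before mitosis, was the kinase with the largest positive difference. It had 22.4, 16.5 and 16.7 FPKM with cytarabine and 15.2, 17.4 and 18.2 FPKM in controls, a log2 difference of 0.11 ± 0.14 (SE, limma adjusted p = 0.662). Cytarabine 1 alone was above the controls, and without it the difference of Wee1 was -0.03 and that of Chek1 -0.07.

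All 6 counted genes of the checkpoint clamp and its mediators were on the lower side with cytarabine, by small amounts that overlapped between the groups. Clspn, of this role but not counted, was on the higher side, as given below. The log2 differences of the 6 ran from -0.26 to -0.07 with a median of -0.10, and none was at an unadjusted p under 0.05. Rad1, a subunit of the ring-shaped checkpoint clamp, had the largest, with 16.1, 14.9 and 13.1 FPKM against 18.6, 15.1 and 20.1 FPKM (log2 difference -0.26 ± 0.13 SE, limma adjusted p = 0.344). Control 2 lay between the cytarabine libraries, and the other controls lay above them all. Hus1, another subunit of the clamp, had a mean of 10.3 FPKM and a difference of -0.07, and Rad17, which loads the clamp, 19.1 FPKM and -0.08. Topbp1, the activator of Atr, was the most abundant of the group at 69.1 FPKM with a difference of -0.08.

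Of the mediators that gather at double-strand breaks, Trp53bp1 had 26.3, 23.2 and 22.8 FPKM with cytarabine and 24.9, 26.3 and 27.3 FPKM in controls. The log2 difference was -0.11 ± 0.08 (SE, limma adjusted p = 0.443), and cytarabine 1 was level with the controls. Mdc1, which binds phosphorylated H2AX, had a mean of 17.6 FPKM and a difference of -0.16. With only the libraries of little colon transcript, the differences of Topbp1, Hus1 and Mdc1 were 0.10, 0.04 and 0.08, so for these genes the direction turned.

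The rows matched to the 2 names without a row did not behave alike. Clspn encodes claspin, which hands Chek1 to Atr. It had 46.0, 42.5 and 42.3 FPKM with cytarabine and 31.4, 36.6 and 37.2 FPKM in controls, with means of 43.6 ± 2.05 and 35.0 ± 3.17 FPKM and a log2 difference of 0.31 ± 0.09 (SE, limma adjusted p = 0.189). Every cytarabine library lay above every control, and the difference was 0.31 with little and 0.42 with much colon transcript. Rad9, the remaining clamp subunit, was at 50.5, 41.9 and 38.6 against 42.8, 46.1 and 47.8 FPKM, a log2 difference of -0.07, and its cytarabine libraries enclosed the controls. It lies on the other strand of exons of Ppp1ca, a gene at a mean of 536 FPKM, and whether strand was used in counting is not given in the sources used here.

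The 13 genes of homologous recombination were centred on 0. Their log2 differences ran from -0.18 to 0.19 with a median of 0.01, 9 were higher and 4 lower, and none was at an unadjusted p under 0.05. Of the 9, Rad51c, Xrcc2, Blm, Mre11a and Nbn were within 0.06 of 0 and turned negative under quantile normalization. That scaling moved the median of all genes tested from -0.00 to -0.06. Rad51c and Xrcc2 moved by more than this, from 0.05 each to -0.11 and -0.08.

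Brca1, which directs broken ends into recombination, was at 17.8, 14.2 and 15.0 FPKM with cytarabine and 13.05, 13.4 and 14.2 FPKM in controls. Means were 15.6 ± 1.88 and 13.6 ± 0.57 FPKM, and the log2 difference was 0.19 ± 0.10 (SE, limma adjusted p = 0.358). The groups did not overlap, but cytarabine 2 and control 3 were level after rounding. Exo1, the exonuclease that resects ends and also serves mismatch repair, had 17.6, 15.9 and 15.2 FPKM against 12.6, 15.0 and 15.1 FPKM, a log2 difference of 0.18 ± 0.10 (SE, limma adjusted p = 0.371). Its groups were also apart, with cytarabine 3 just above control 3.

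Palb2, the bridge between Brca1 and Brca2, was at 5.89, 5.53 and 4.48 FPKM against 4.29, 4.16 and 5.08 FPKM, with a log2 difference of 0.19 ± 0.13 (SE, limma adjusted p = 0.446). Control 3 lay above cytarabine 3, so the groups overlapped. Brca2, a mediator of recombination at single-stranded DNA, had 10.8, 7.78 and 9.33 against 9.49, 9.73 and 9.42 FPKM, a log2 difference of -0.04 ± 0.12 (SE, limma adjusted p = 0.848). Its controls lay within 0.31 FPKM of each other, and the cytarabine libraries enclosed them.

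Rad50, the coiled-coil subunit of the nuclease complex that first binds broken ends, was at 16.7, 13.1 and 13.8 FPKM against 15.8, 16.1 and 16.8 FPKM. Its log2 difference was -0.16 ± 0.10 (SE, limma adjusted p = 0.419), and only cytarabine 1 reached the controls. The other subunits of that complex, the nuclease Mre11a and the adaptor Nbn, had means of 15.0 and 19.2 FPKM and differences of 0.00 and 0.00. Mre11a lies on the other strand of exons of Ankrd49, at 18.3 FPKM.

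The rest of the group differed little. Bard1, the partner of Brca1, was at a mean of 12.2 FPKM with a log2 difference of 0.09. Rad51c, Xrcc2 and Xrcc3, which assist strand exchange, were at 4.40, 8.09 and 11.7 FPKM with differences of 0.05, 0.05 and -0.18. Rad54l, a motor of strand invasion, was at 29.6 FPKM and the helicase Blm at 11.0 FPKM, with differences of -0.01 and 0.01.

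In the Fanconi anemia pathway, which unhooks crosslinks and protects forks, 1 of 6 genes was at an unadjusted p under 0.05. This count is near the share of all genes tested at that level, 17.4%. Fancl, the ubiquitin ligase that marks Fancd2 and Fanci, had 12.2, 9.60 and 9.70 FPKM with cytarabine and 7.54, 7.54 and 9.27 FPKM in controls. Means were 10.5 ± 1.46 and 8.12 ± 1.00 FPKM, a ratio of 1.29, and the log2 difference was 0.33 ± 0.13 (SE, 95% interval 0.02 to 0.65, limma adjusted p = 0.275). The groups did not overlap, although control 3 came within 0.336 FPKM of cytarabine 2. The difference was 0.49 with little and 0.32 with much colon transcript. Fancl lies on the other strand of exons of Vrk2, which was at 13.04 FPKM with a difference of 0.08.

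The substrates of Fancl did not share that direction. Fancd2 was at a mean of 17.1 FPKM with a log2 difference of -0.07, and Fanci at 11.5 FPKM with -0.06. In the core complex Fanca and Fancg were at 13.7 and 8.92 FPKM, with differences of -0.09 and 0.15. Fancc, also of the core complex, was the least abundant of the 38 genes, at 2.26, 1.91 and 1.32 FPKM against 1.77, 2.17 and 2.39 FPKM (log2 difference -0.15 ± 0.21 SE, limma adjusted p = 0.697), and the groups overlapped.

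The genes of end joining, single-strand break repair and mismatch repair held 3 of the 4 genes at an unadjusted p under 0.05, which is 3 of the 6 in this group, against 17.4% of all genes tested. The negative differences furthest from 0 in the set, those of Xrcc6 and Xrcc1, were among them. Their median absolute log2 difference was 0.31, against 0.05 in homologous recombination. Xrcc6 encodes the smaller subunit of Ku, the ring that slides onto a broken end and recruits Prkdc. Cytarabine 1, 2 and 3 had 33.0, 30.3 and 29.6 FPKM, and control 1, 2 and 3 had 44.4, 42.7 and 44.9 FPKM. The highest cytarabine library was thus 9.69 FPKM under the lowest control. Means were 31.0 ± 1.77 and 44.0 ± 1.16 FPKM, a ratio of 0.704, and the log2 difference was -0.49 ± 0.06 (SE, 95% interval -0.65 to -0.33).

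By unadjusted p, Xrcc6 ranked 18 of the 11703 genes, but after adjustment it did not pass the threshold (limma adjusted p = 0.131). It was the only one of the 38 below an unadjusted p of 0.05 in each of the 18 fits tried. Its difference was -0.40 with little and -0.55 with much colon transcript, and the side was fixed because its groups did not overlap. The gene spans chr15:81987835-82040085 on the + strand (GENCODE vM21, GRCm38), and its exons overlap those of Desi1 on the other strand. Under its older symbol Pppde2 that neighbour had 37.6, 32.9 and 31.2 FPKM with cytarabine and 31.3, 34.0 and 36.5 FPKM in controls, a log2 difference of -0.00, so the neighbour overlapped between the groups where Xrcc6 did not.

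The larger Ku subunit did not follow. Xrcc5 had 42.5, 40.8 and 38.0 FPKM against 40.8, 42.7 and 46.7 FPKM, a log2 difference of -0.10 ± 0.08 (SE, limma adjusted p = 0.493). The subunits work as a pair, and FPKM is per length, so their ratio within a library can be read. The ratio of Xrcc6 to Xrcc5 was 0.775, 0.744 and 0.779 with cytarabine and 1.09, 0.998 and 0.961 in controls (means 0.766 ± 0.019 and 1.02 ± 0.066, SD, n = 3 each). It did not overlap between the groups. The pairs for the 3 ratios given here were picked after values were seen, so they are descriptions without a test.

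Chek1 to Chek2 was the other ratio of the 3 whose groups did not overlap, at 1.92, 1.78 and 1.77 with cytarabine and 1.54, 1.62 and 1.58 in controls. Each of these kinases alone overlapped between the groups. A ratio cancels a factor that both genes share within a library, and whether such a factor moved these kinases was not tested. How often the ratios of other gene pairs do not overlap was not counted. The ratio of Brca1 to Bard1 overlapped.

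**Figure D2:**
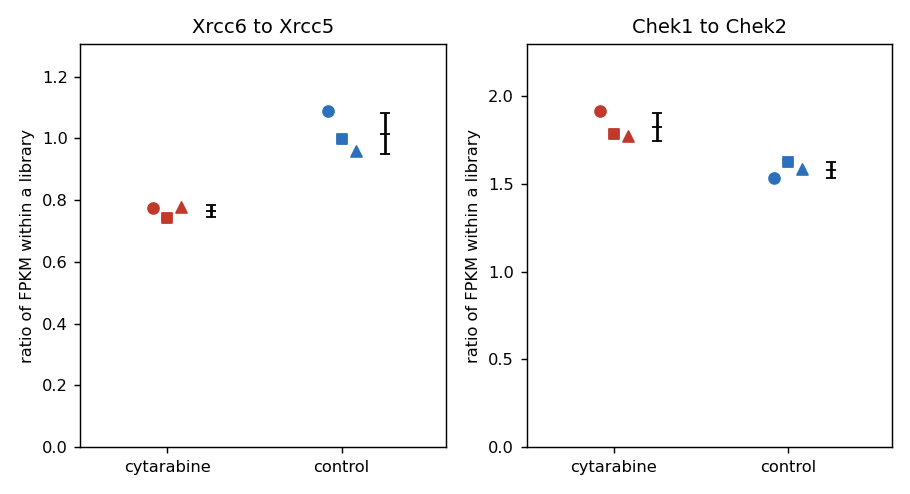
Ratio of FPKM within each library for Xrcc6 to Xrcc5 (left) and Chek1 to Chek2 (right), both axes starting at 0, with 1 symbol per replicate and the mean ± SD beside each group. The Ku ratio was 0.744 to 0.779 with cytarabine and 0.961 to 1.09 in controls, and the kinase ratio 1.77 to 1.92 and 1.54 to 1.62.

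Xrcc1, the scaffold on which single-strand breaks are sealed, was the other gene at an unadjusted p under 0.05 on the lower side. It had 17.3, 17.4 and 14.5 FPKM with cytarabine and 20.4, 19.7 and 22.9 FPKM in controls, with means of 16.4 ± 1.68 and 21.0 ± 1.64 FPKM and a ratio of 0.781. The log2 difference was -0.34 ± 0.10 (SE, 95% interval -0.59 to -0.09, limma adjusted p = 0.202). The groups were apart by 2.30 FPKM, and the difference was -0.28 with little and -0.34 with much colon transcript. Parp1, which detects the break and calls Xrcc1 to it, was the most abundant of the 38 genes, at 105, 96.1 and 87.3 FPKM against 93.0, 117 and 117 FPKM. Its log2 difference was -0.17 ± 0.12 (SE, limma adjusted p = 0.441), and control 1 lay among the cytarabine libraries.

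Msh6, which serves in the recognition of mismatched bases, was on the higher side. It was at 25.2, 20.3 and 24.4 FPKM with cytarabine and 17.5, 18.5 and 19.8 FPKM in controls, with means of 23.3 ± 2.63 and 18.6 ± 1.17 FPKM and a ratio of 1.25. The log2 difference was 0.31 ± 0.10 (SE, 95% interval 0.06 to 0.56, limma adjusted p = 0.230). Every cytarabine library exceeded every control, cytarabine 2 by the least, and the difference was 0.38 with little and 0.33 with much colon transcript. Its exons overlap Fbxo11 on the other strand, which was at 10.5 FPKM with a difference of -0.07.

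Lig4, the ligase of end joining, was low but apart between the groups. It had 2.81, 2.34 and 3.23 FPKM with cytarabine and 2.08, 2.08 and 2.01 FPKM in controls, a log2 difference of 0.31 ± 0.16 (SE, limma adjusted p = 0.356). At this level the added 1 understates the change, and the ratio of the means was 1.36. The difference of Lig4 was 0.02 under quantile normalization. End joining therefore held a gene lower with cytarabine in every library (Xrcc6) and one higher in every library (Lig4), neither past the adjusted threshold.

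**Figure D3:**
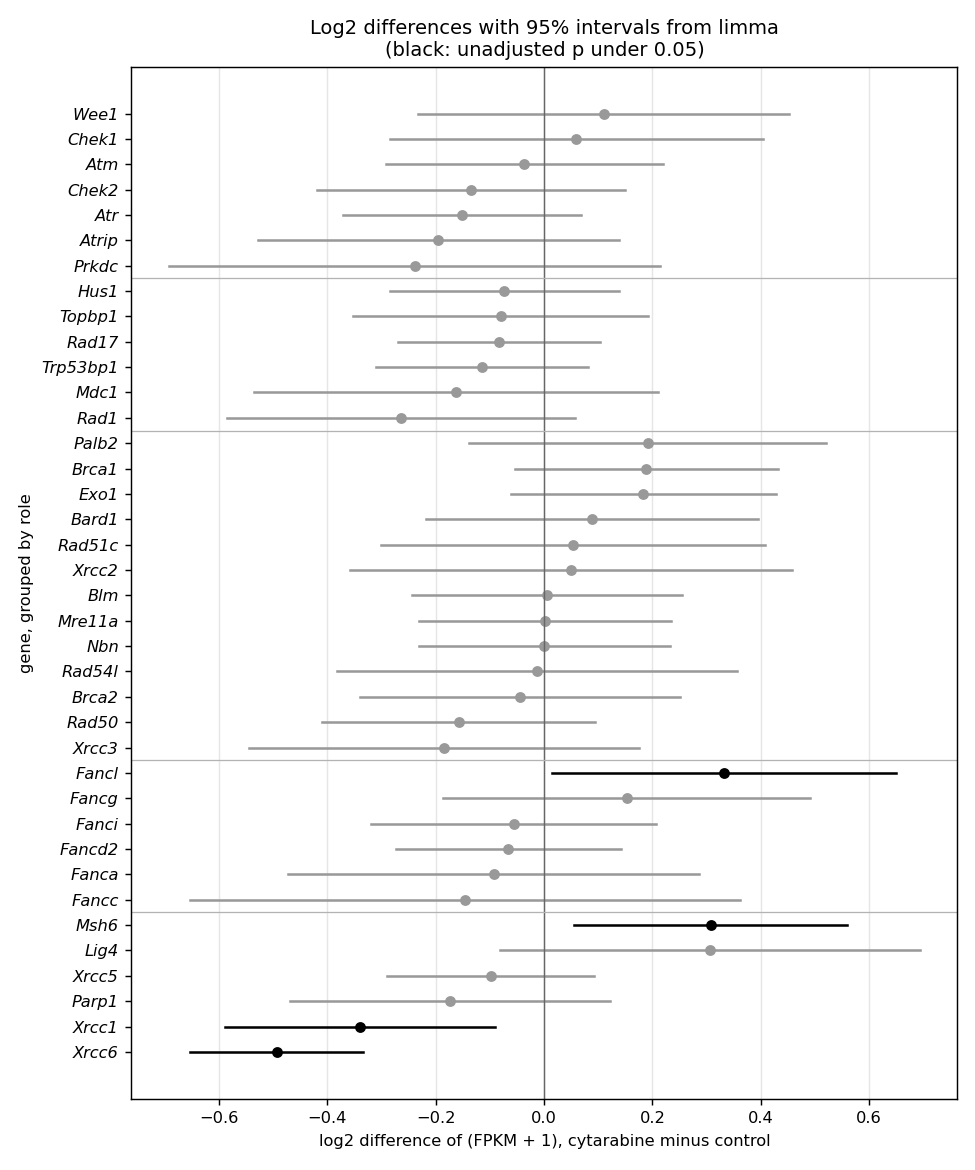
Log2 difference of (FPKM + 1), cytarabine minus control, with its 95% interval from limma, for the 38 genes grouped by role. Black marks the 4 genes at an unadjusted p under 0.05, Fancl and Msh6 to the right of 0 and Xrcc1 and Xrcc6 to the left.

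The 38 genes varied together from library to library more than between the groups. Relative to each gene's own mean, the median over the 38 was 114% in cytarabine 1, 91.9% in cytarabine 2 and 91.3% in cytarabine 3, and 95.04%, 101% and 108% in control 1, 2 and 3. Cytarabine 1 was the highest library for 20 of the 38 genes and control 3 for 15. Cytarabine 2 and 3 were both below cytarabine 1 for 34 genes, and control 1 was below control 3 for 36. These counts were not made over all genes tested. A like pattern was seen in the 97 other repair genes described below, so it was not particular to the 38. Averaged on a log scale, those genes stood at 107%, 96.7% and 92.6% of their mean in cytarabine 1, 2 and 3. In control 1, 2 and 3 they stood at 96.9%, 101% and 106%.

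The libraries with low repair transcripts were those with much colon transcript. Cytarabine 2, cytarabine 3 and control 1 had summed FPKM over the 38 genes of 649, 648 and 683, and the others 731 to 780. FPKM are shares of a library, and the part of the colon transcripts in these levels was not tested. Within the libraries of little colon transcript the median log2 difference of the 38 genes was 0.09, and within those of much it was -0.05, so the sign of the median turned with the libraries chosen.

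Leaving out cytarabine 1 changed the counts most. In that fit 9 genes were lower at an unadjusted p under 0.05 (Xrcc6, Xrcc3, Rad50, Fanca, Mdc1, Xrcc1, Prkdc, Trp53bp1 and Topbp1) and none higher, while 34.8% of all genes tested were at that level. With the FPKM scaled so that the other repair genes were level between libraries, an alternative chosen after seeing the data, 4 genes were higher at an unadjusted p under 0.05 (Fancl, Msh6, Brca1 and Exo1) and the same 2 lower, against 19.7% of all genes in that fit.

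**Figure D4:**
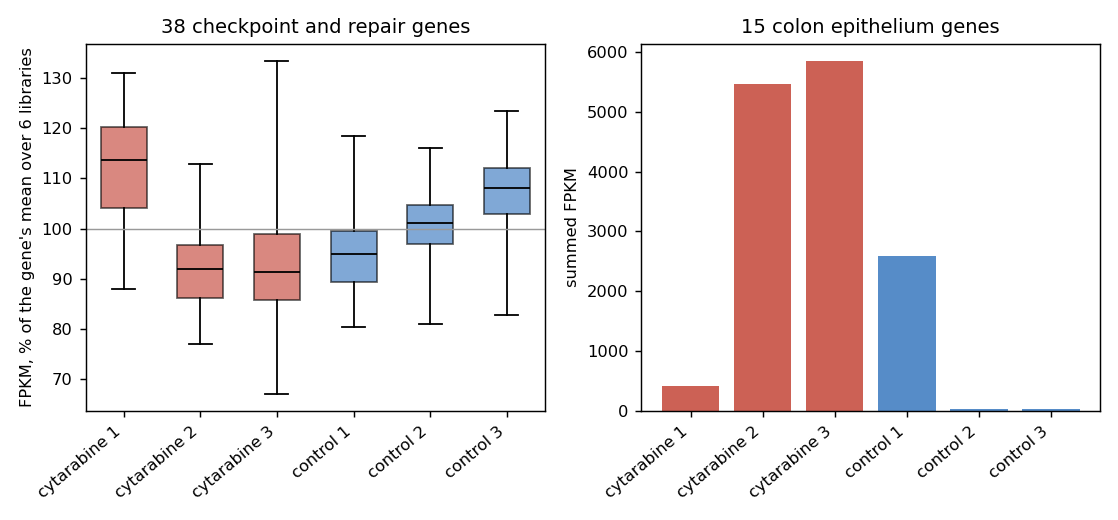
Left, FPKM of the 38 genes in each library as a percentage of the gene's mean over the 6 libraries (box, quartiles and median; whiskers, lowest and highest gene). Right, summed FPKM of 15 colon epithelium genes in the same libraries, where the libraries with the lowest medians on the left (cytarabine 2 and 3 and control 1) had 2589 to 5840 FPKM and the others 30.6 to 417.

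The other genes of these pathways gave a like picture. Of 99 further genes of checkpoint control and repair, 97 passed the filter, of which 36 were higher and 61 lower, with a median log2 difference of -0.05. None had an adjusted p under 0.05 in limma's fit, and 14 (14.4%, against 17.4% of all genes) had an unadjusted p under 0.05, 8 higher and 6 lower. The distribution of their differences lay close to that of the 38 genes and was narrower than that of all genes.

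**Figure D5:**
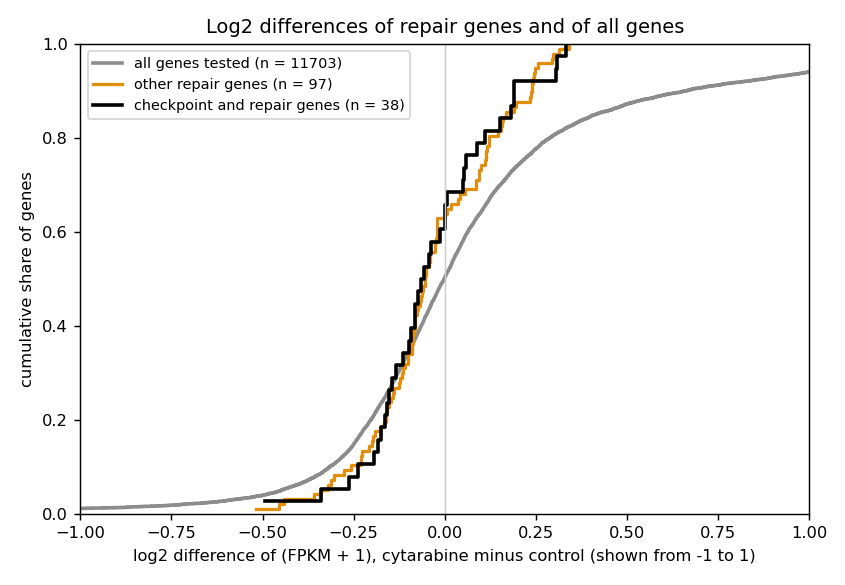
Cumulative share of genes against the log2 difference of (FPKM + 1), cytarabine minus control, from -1 to 1, for the 38 genes (black), 97 other repair genes (orange) and all 11703 genes tested (grey). Black and orange rise together and more steeply than grey, with medians of -0.06, -0.05 and -0.00 and all 38 differences between -0.49 and 0.33.

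Downstream of the checkpoint kinases, Cdc25b and Cdc25c, phosphatases that switch Cdk1 on, were on the lower side, while Cdc25a of the same family was not. Cdc25a was at 36.5, 32.8 and 31.4 FPKM with cytarabine and 27.5, 29.8 and 32.7 FPKM in controls. Its log2 difference was 0.16, and its groups overlapped. Cdc25b was at 9.73, 11.6 and 9.07 FPKM with cytarabine and 13.2, 13.99 and 15.5 FPKM in controls (log2 difference -0.46 ± 0.11 SE, limma adjusted p = 0.167). Cdc25c was at 13.03, 8.65 and 10.1 against 13.2, 15.1 and 15.4 FPKM (log2 difference -0.44 ± 0.15 SE, limma adjusted p = 0.237). Neither gene overlapped between the groups, though cytarabine 1 came close to control 1 for Cdc25c. On the higher side were Etaa1, an activator of Atr, with a log2 difference of 0.24, and Ppm1d, the phosphatase that ends the checkpoint, with 0.29, and these did not overlap either. The direction of Ppm1d turned to -0.07 with colon and heart transcripts as covariates.

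Rpa1 and Rpa3, subunits of the protein that coats single-stranded DNA, were at 84.1 to 88.2 and 131 to 152 FPKM with cytarabine and at 67.1 to 81.5 and 114 to 123 FPKM in controls. Their log2 differences were 0.24 and 0.23 (limma adjusted p = 0.239 and 0.231). The libraries of both genes were apart. Those of Rpa2, the remaining subunit, overlapped, at 48.1 to 62.1 FPKM with cytarabine and 46.9 to 51.8 FPKM in controls. Its log2 difference was 0.12 (limma adjusted p = 0.524). The Fanconi conjugating enzyme Ube2t, which works with Fancl, went the other way from it, with 22.3 to 27.1 FPKM against 28.9 to 33.2 FPKM and a log2 difference of -0.31 (limma adjusted p = 0.213).

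In base excision and single-strand break repair, Tdp1, which clears blocked 3′ ends, was at 22.4, 17.4 and 16.4 FPKM with cytarabine and 24.9, 27.6 and 28.6 FPKM in controls (log2 difference -0.52 ± 0.13 SE, limma adjusted p = 0.172). It was the lowest of the 97 and, like its partner in this pathway Xrcc1, below the controls in every library. The glycosylase Neil3 was higher, at 17.2 to 20.7 against 13.4 to 15.9 FPKM (log2 difference 0.34, limma adjusted p = 0.209). In nucleotide excision repair the TFIIH subunits diverged, with Ercc3 and Gtf2h1 at log2 differences of 0.25 and 0.24 and Gtf2h4 at -0.36, while Ddb1, a damage sensor subunit, was at -0.15. For these genes too the groups did not overlap, and the adjusted p of the last 4 ran from 0.190 to 0.256 in limma.

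Repair genes are transcribed with the cell cycle, so lists of cycle genes were read beside them. Of 20 genes of S phase, 5 were higher at an unadjusted p under 0.05 and 0 lower (7.6% and 9.81% of all genes), with a median log2 difference of 0.11. Examples were the cyclins Ccne2 and Ccne1 at 0.70 and 0.39 and the ribonucleotide reductase subunit Rrm2 at 0.49. Of 18 genes of G2 and mitosis, 9 were lower at that level and 0 higher, among the 9 Ube2c at -0.87 and Plk1 at -0.58. The median of the 18 was -0.26. By sign alone 16 were lower and 2 higher, Ccnb2 at 0.33 and Kif20a at 0.21. The 38 repair genes, with a median of -0.06, lay between these lists, and the part of cycle phase in their levels was not tested. The 9 genes with E2F letters in a window had a median log2 difference of -0.04, and the 22 matched genes without them -0.08, and both ranges included Xrcc6 or Xrcc1 at the low end and Msh6 or Fancl at the high end.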

How the data were processed

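RNA-Seq was analysed from C1498 leukemia cells of 3 cytarabine-treated and 3 control mice. Per the methods and the submitters' processing notes, single-end reads of 75 bases were aligned by the authors to mm10 with TopHat2 2.0.13, Bowtie2 2.2.3 and SAMtools 0.1.19. The authors then deposited the FPKM that Cufflinks 2.2.1 gave per gene. Length and library size were thus divided out before deposit, and the deposited FPKM hold no counts. The gene annotation and the strand option are not given in the sources used here. Groups and replicate numbers were taken from the labels.

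From FPKM, log2(FPKM + 1) was computed for the 11703 genes whose mean reached 1 FPKM and fitted with limma 3.58.1 in R 4.3.3 (lmFit, eBayes with trend, two-sided, Benjamini-Hochberg over all genes tested, threshold 0.05). On this scale the change of low genes is understated. Depth was inferred from the steps of low FPKM, with a fragment length of 200 bases assumed, and limits the precision of low values. The fit was tested on simulated data.

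The members and lists were chosen with earlier results of these data known. Named with values in every library were Atm, Atr, Chek1, Chek2, Wee1, Prkdc, Brca1, Brca2, Trp53bp1 and Parp1, the 14 members with the smallest unadjusted p, and the most and least abundant. Other pathway genes were named up to 2 per list and direction, by smallest unadjusted p under 0.05. Cdc25a was added beside Cdc25b and Cdc25c, and Rpa2 beside Rpa1 and Rpa3. The genes that overlap members, the cycle genes and the ratios were chosen after values were seen. Members were matched to RefSeq promoter windows and to GENCODE vM21 by symbol, and of the 99 other pathway genes 4 were found by an older symbol.

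Same-numbered libraries are different mice, and their deviations from the group means correlated at -0.71, -0.25 and -0.59. These values gave no sign of pairing by number. They run over all genes tested, including the colon transcripts that cross the groups, so they cannot exclude a shared batch. Alternatives were another pseudocount, other filters, 3 other scalings, other settings of eBayes, the replicate block, colon and heart transcripts as covariates, each library left out, and the libraries of little or much colon transcript alone. A scaling to the other repair genes was chosen after seeing the data. No count test was made, since FPKM are not counts. Some single genes and ratios are not reported here. Plots were made in Python 3.11.15 (matplotlib 3.10.9).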

Additional observations from a re-analysis of the deposited data

How the results depend on the processing

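No member passed the adjusted threshold in any of the 18 limma fits (0 of 38 in each), in which 0 to 5 of all genes tested did. Of 1003 values of single genes under the alternatives, 944 kept their direction and 59 reversed. Where a test was made, none of the 944 passed the adjusted threshold. The libraries of little or much colon transcript alone gave no p. The 1003 values cover the 38 genes, Clspn, Rad9 and the other pathway genes named by smallest p. The log2 differences of Xrcc6 ranged from -0.55 to -0.40, of Xrcc1 from -0.60 to -0.26, of Msh6 from 0.25 to 0.58 and of Fancl from 0.23 to 0.49, and the adjusted p of Xrcc6 from 0.0517 to 0.998. The numbers of genes at an unadjusted p under 0.05 depended on the processing, and the cause was not tested. Of the 38 genes 2 were higher, and this became 1 with no filter, 1 with quantile normalization, 1 with the covariates, 4 with the scaling to the other repair genes (chosen after seeing the data) and 0 to 2 without single libraries. The 2 lower genes became 1 to 9 without single libraries, the 9 without cytarabine 1. Of the other pathway genes 8 were higher, and this became 5 with quantile normalization, 1 with the covariates, 14 with the scaling to the other repair genes and 3 to 9 without single libraries. The 6 lower became 2 with the covariates and 2 to 19 without single libraries.

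The replicate block used the numbers, which are not known to be a pairing. With it, 0 of the 38 genes were higher and 1 lower (Xrcc6) at an unadjusted p under 0.05. Of the other pathway genes 1 was higher and 2 lower, while the unadjusted count over all genes went from 2038 to 994.

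The median log2 difference of the 38 genes, -0.06, was 0.066 with the covariates, 0.087 in the libraries of little colon transcript and -0.14 to -0.0078 without single libraries. With the covariates the direction reversed for Atm (0.10), Chek2 (0.14), Topbp1 (0.066), Mdc1 (0.12), Brca2 (0.28), Palb2 (-0.049), Rad51c (-0.072), Rad54l (0.066), Xrcc3 (0.028), Fanca (0.0052), Fanci (0.091) and Ppm1d (-0.072). With little colon transcript alone it reversed for Atm (0.084), Chek2 (0.028), Prkdc (0.13), Topbp1 (0.098), Rad9 (0.10), Hus1 (0.035), Mdc1 (0.082), Brca2 (0.16), Rad51c (-0.089), Rad54l (0.28), Xrcc3 (0.066), Rad50 (0.023), Fanca (0.22) and Fanci (0.089), and with much alone for Bard1 (-0.017) and Blm (-0.052). Scalings also moved the median of all genes tested, from -0.00 to -0.063 with quantile normalization, 0.017 with an equal sum per library and 0.034 with the scaling to the other repair genes. Quantile normalization reversed Rad51c (-0.11), Xrcc2 (-0.077), Blm (-0.058), Mre11a (-0.032) and Nbn (-0.017), and an equal sum per library and the scaling to the other repair genes reversed Rad54l (0.0061 and 0.023), from -0.01, by about the shift of all genes. Without single libraries the ranges that crossed 0 were -0.12 to 0.019 for Atm, -0.074 to 0.18 for Chek1, -0.027 to 0.18 for Wee1, -0.17 to 0.014 for Rad9, -0.15 to 0.065 for Brca2, -0.042 to 0.17 for Bard1, -0.055 to 0.15 for Rad51c, -0.17 to 0.078 for Rad54l, -0.095 to 0.17 for Xrcc2, -0.087 to 0.065 for Blm, -0.070 to 0.052 for Mre11a, -0.065 to 0.083 for Nbn and -0.26 to 0.0015 for Fanca.

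With 3 mice per group and standard errors near 0.12 log2 units, small differences could not be called, and FPKM give each gene's share of a library that also held other tissues' RNA.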

Other observations

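Translesion synthesis, which copies past a lesion, and the cohesin and SMC5/6 complexes, which hold and resolve sister chromatids, were read as 2 further lists written after the values of the 38 genes had been seen. Of 9 translesion and tolerance genes, 2 were higher and 7 lower, with a median log2 difference of -0.12 and no adjusted p under 0.05 in limma's fit, and 2 were at an unadjusted p under 0.05, against 17.4% of all genes tested, Hltf and Polk. Hltf, a ligase and translocase of stalled forks, was at 17.9, 13.9 and 15.2 FPKM with cytarabine and 20.5, 23.3 and 22.4 FPKM in controls (log2 difference -0.47 ± 0.11 SE, limma adjusted p = 0.159). Polk, a translesion polymerase, was at 6.17, 7.52 and 7.12 against 5.71, 5.24 and 5.66 FPKM (log2 difference 0.28 ± 0.10 SE, limma adjusted p = 0.254). In both the groups did not overlap.

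Of 12 genes of cohesin and SMC5/6, 11 were lower, with a median log2 difference of -0.16, and 2 were at an unadjusted p under 0.05 (9.81% of all genes were lower at that level). Smc1a and Stag1 had log2 differences of -0.25 and -0.27 (limma adjusted p = 0.212 and 0.229), each below the controls in every library. Rad21, the cohesin subunit cut at anaphase, was at 96.4 to 101 FPKM with cytarabine and 90.8 to 103 FPKM in controls, a log2 difference of -0.00.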
